A study of Homo sapiens with 4 samples.

Results

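The 10 genes DUSP1, DUSP4, DUSP5, DUSP6, SPRY2, SPRY4, SPRED1, SPRED2, ETV4 and ETV5 are transcribed in response to ERK signalling and restrain or relay it. They were found on the array by symbol, and all 10 had exactly 1 probe set with a single gene symbol, among 18417 genes so named. The cells were NOMO-1, an established line from a human acute monocytic leukaemia, and RNA was measured on 4 expression arrays, 1 per lentiviral construct. The controls, whose genotype is labelled ZFX wild type, were cells with a GFP lentivirus (LEN-GFP) and cells with a scrambled shRNA (SCR). The other arrays, labelled ZFX knock-down, came from cells with the ZFX hairpins SH1 and SH3. All cells had been transduced at a multiplicity of infection of 1 and had passed selection 48 h before RNA was taken. No array repeats a construct and no culture is described as independent, so the spread between arrays mixes construct, culture and technical error. The genes were chosen by a list drawn up with their differences between each hairpin array and the controls known, so those values are given as a description and not as tests. The probe set of a gene was to be selected on its mean log2 intensity over the 4 arrays, a choice that did not arise.

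In this pathway growth factor receptors load RAS with GTP, RAF kinases phosphorylate MEK, and MEK phosphorylates ERK. Active ERK then switches on genes whose products turn the signal down. The DUSP phosphatases remove phosphate from ERK and related kinases, and the Sprouty and Spred proteins block the step from receptors and RAS to RAF. ETV4 and ETV5 are ETS transcription factors of the PEA3 group that are themselves induced by growth factors. In myeloid cells the pathway carries signals of receptors such as KIT, CSF1R and the receptor for GM-CSF.

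ZFX itself, the target of the hairpins, was lower on both hairpin arrays, with log2 intensities of 10.65 on LEN-GFP, 10.66 on SCR, 10.13 on SH1 and 10.12 on SH3. Its knock-down was therefore nearly equal with the 2 hairpins, at 69.3% of the control level on average. Across 12892 genes tested, limma called 0 genes between the groups at an adjusted p of 0.05 (0.00%), and 779 had an unadjusted p under 0.05. Statistics without moderation also called 0, with 686 at an unadjusted p under 0.05. ZFX itself, though lower on both hairpin arrays, did not pass between the groups (adjusted p = 0.797 in limma). In a fit with 3 groups, where the control arrays alone give the spread, limma called 816 genes higher and 903 lower on SH3, and 20 higher and 32 lower on SH1. Of the 14 markers of monocytic leukaemia fixed for this purpose, 11 were on the array, and all of these passed the filter on dim genes. On SH3 7 of the 11 were above the mean of the controls, among them CD4 (0.44 on the log2 scale), ITGAM (0.37) and CD14 (0.26), and 2 were called lower. MPO and ELANE, granule enzymes of myeloid precursors, were these 2, at -1.02 and -1.50 from the mean of the controls on the log2 scale. CSF1R was called higher on SH1, by 0.96. The summed linear intensity of the 11 markers was 59726 to 60520 on the controls and 51220 to 58853 on the hairpin arrays. All 5 T cell markers fell below the filter, and none of the 9 tested markers of B, erythroid or epithelial cells was called on either hairpin array. The B cell marker MS4A1 was below the filter and not tested, at log2 intensities of 5.33 and 5.34 on the controls, 5.34 on SH1 and 6.04 on SH3. The summed linear intensity of the 5 epithelial markers was 1749 to 1837 on the controls and 1713 to 2003 on the hairpin arrays, and that of the 5 T cell markers was 323 to 336 and 343 to 345. Any part of the myeloid precursor genes in the values below was not tested.

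The members did not all differ from the controls in the same direction on either hairpin array. SH3 was above both controls on 8 of the 10 genes and below both on SPRY2, while SH1 was above both on 2 and below both on 4. Of the 9 members that passed the filter on dim genes, SH3 was above both controls on 7 and below both on 1, where 38.7% and 39.8% of all genes tested did so. SH1 was above both controls on 2 and below both on 4 of these 9, against 34.5% and 34.8% of genes tested. Both hairpin arrays lay above both controls on SPRED1 alone, against 18.2% of genes tested, and on no member did both lie below, against 19.0%. The median difference of the 10 members from the mean of the controls was 0.29 on SH3 and -0.06 on SH1, on the log2 scale, beside medians of -0.0014 and -0.0006 over all genes tested. These values chose the members and carry no weight of their own. The 2 hairpin comparisons share the same control arrays.

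Promoter sequence, taken from the RefSeq tables of GRCh38.p14, was at hand for 6 of the 10 genes. DUSP1 had the highest value of the members on SH3, DUSP6 had nearly equal group means, and SPRY2 alone was below both controls on SH3. Below are the 250 bases before the start of each of these genes. All are on the minus strand and are written 5′ to 3′ in the direction of transcription, and capitals mark the matches to the motifs described next.
DUSP1, chr5:172771196-172771445: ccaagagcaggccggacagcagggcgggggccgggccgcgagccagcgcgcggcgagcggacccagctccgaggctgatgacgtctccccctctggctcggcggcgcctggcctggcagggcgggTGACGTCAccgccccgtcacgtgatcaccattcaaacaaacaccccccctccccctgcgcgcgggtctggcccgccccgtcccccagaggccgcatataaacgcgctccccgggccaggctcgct
DUSP6, chr12:89352502-89352751: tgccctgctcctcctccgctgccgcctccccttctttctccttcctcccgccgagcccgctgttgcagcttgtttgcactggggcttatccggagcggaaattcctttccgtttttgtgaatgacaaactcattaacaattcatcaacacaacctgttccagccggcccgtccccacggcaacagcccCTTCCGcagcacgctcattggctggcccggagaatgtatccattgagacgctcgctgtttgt
SPRY2, chr13:80341127-80341376: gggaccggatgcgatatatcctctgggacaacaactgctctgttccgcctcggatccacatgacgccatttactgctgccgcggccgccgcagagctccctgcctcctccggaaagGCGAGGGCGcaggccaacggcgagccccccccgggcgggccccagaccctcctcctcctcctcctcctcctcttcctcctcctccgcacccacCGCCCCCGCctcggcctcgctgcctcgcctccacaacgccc
Both strands were searched for the cAMP response element (CRE, TGACGTCA), an AP-1 site (TGANTCA), an ETS core (CGGAAG), an EGR site (GCGNGGGCG), a CArG box of serum response factor and a ZFX core (AGGCCT). The DUSP1 window holds a CRE, a motif present in 1.65% of the 35116 promoter windows of this length. The DUSP6 window holds an ETS core on the opposite strand, present in 16.48% of windows. The SPRY2 window holds 2 EGR sites, present in 8.41%, and of its 3 start sites only this outermost start had a match. SPRY4 also has an EGR site and an inner start of SPRED2 has a ZFX core, a motif in 9.20% of windows. No AP-1 site (6.57%) and no CArG box (1.16%) was found in the windows of the 6 genes, and no match overlapped another. A match describes the letters in these windows and nothing more.

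Among the phosphatases DUSP1 varied most. DUSP1, a nuclear phosphatase that acts on p38 and JNK as well as on ERK and is itself an immediate early gene, had log2 intensities of 9.34 on LEN-GFP, 8.35 on SCR, 8.21 on SH1 and 10.67 on SH3. SH3 was the highest array and SH1 the lowest, so the hairpins sat at opposite ends and the groups overlapped. On SH3 DUSP1 was 2.52-fold the level on LEN-GFP and 4.98-fold that on SCR, and on SH1 it was 0.460-fold and 0.909-fold these levels. The hairpin arrays thus differed by 2.45 on the log2 scale, or 5.48-fold. The log2 intensity of ZFX was 10.13 on SH1 and 10.12 on SH3, and its part in the value of DUSP1 was not tested. The difference of the group means was 0.60 (SE 0.85, 2 against 2 arrays). It was 1.83 without SH1, -0.63 without SH3, 1.09 without LEN-GFP and 0.11 without SCR.

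The other phosphatases varied less. DUSP6, the cytoplasmic phosphatase selective for ERK, had log2 intensities of 10.01 on LEN-GFP, 10.29 on SCR, 9.87 on SH1 and 10.36 on SH3. SH3 and SCR were close at the top and SH1 was lowest, and the group means differed by -0.03 (SE 0.21). DUSP5, a nuclear phosphatase selective for ERK, was at 7.83 on LEN-GFP, 8.16 on SCR, 8.10 on SH1 and 8.45 on SH3. Here LEN-GFP was the low array, SCR and SH1 lay within 0.06 of each other and SH3 was highest, with a group difference of 0.28 (SE 0.18). DUSP4, another nuclear phosphatase, was at 5.90, 6.12, 5.97 and 6.21 in the same order of arrays. With a mean of 6.05 it fell under the filter on dim genes, at 6.70, and was the only member not tested. ETV4 was the dimmest member tested, at 7.01.

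SPRY2 was the only member with SH3 below both controls. SPRY2, an inhibitor of receptor tyrosine kinase signalling, had log2 intensities of 8.32 on LEN-GFP, 8.73 on SCR, 8.80 on SH1 and 8.06 on SH3. SH3 was the lowest array, at 0.835-fold the level on LEN-GFP and 0.631-fold that on SCR, while SH1 was the highest. The hairpins therefore bracketed the controls, and the group means differed by only -0.09 (SE 0.29). SPRY4, a second Sprouty inhibitor, was at 8.88 on LEN-GFP, 9.34 on SCR, 8.99 on SH1 and 8.92 on SH3. SCR alone was high, and LEN-GFP and both hairpin arrays lay within 0.11 of each other. Against LEN-GFP alone SPRY4 differed by 0.04 on SH3 and 0.11 on SH1, and against SCR alone by -0.42 and -0.35, so the sign of the difference depends on which control is used.

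Of the Spred genes, SPRED1, whose product brings the RAS inhibitor neurofibromin to the membrane, was the only member with separate groups. Its log2 intensity was 7.50 on LEN-GFP, 7.59 on SCR, 7.74 on SH1 and 7.86 on SH3. The group means differed by 0.26 (SE 0.10), a 1.20-fold difference, and the nearest hairpin and control arrays were 0.15 apart. SPRED2, a close relative with the same type of action, was at 10.27, 10.33, 10.23 and 10.55 in that order. Only SH3 stood above the other arrays, by 0.22 from the nearest, and the group difference was 0.09 (SE 0.15).

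Both ETS factors were highest on SH3. ETV5 had log2 intensities of 8.63 on LEN-GFP, 8.51 on SCR, 8.57 on SH1 and 9.70 on SH3. The controls and SH1 lay within 0.12 of each other and SH3 was apart, at 2.10-fold the level on LEN-GFP and 2.28-fold that on SCR. The difference of the group means, 0.56 (SE 0.38), was 1.13 without SH1 and 0 without SH3. ETV4 was at 6.79 on LEN-GFP, 7.06 on SCR, 6.68 on SH1 and 7.52 on SH3. SH3 was again the highest and SH1 the lowest, with a group difference of 0.17 (SE 0.29), 0.59 without SH1 and -0.25 without SH3.

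**Figure D1:**
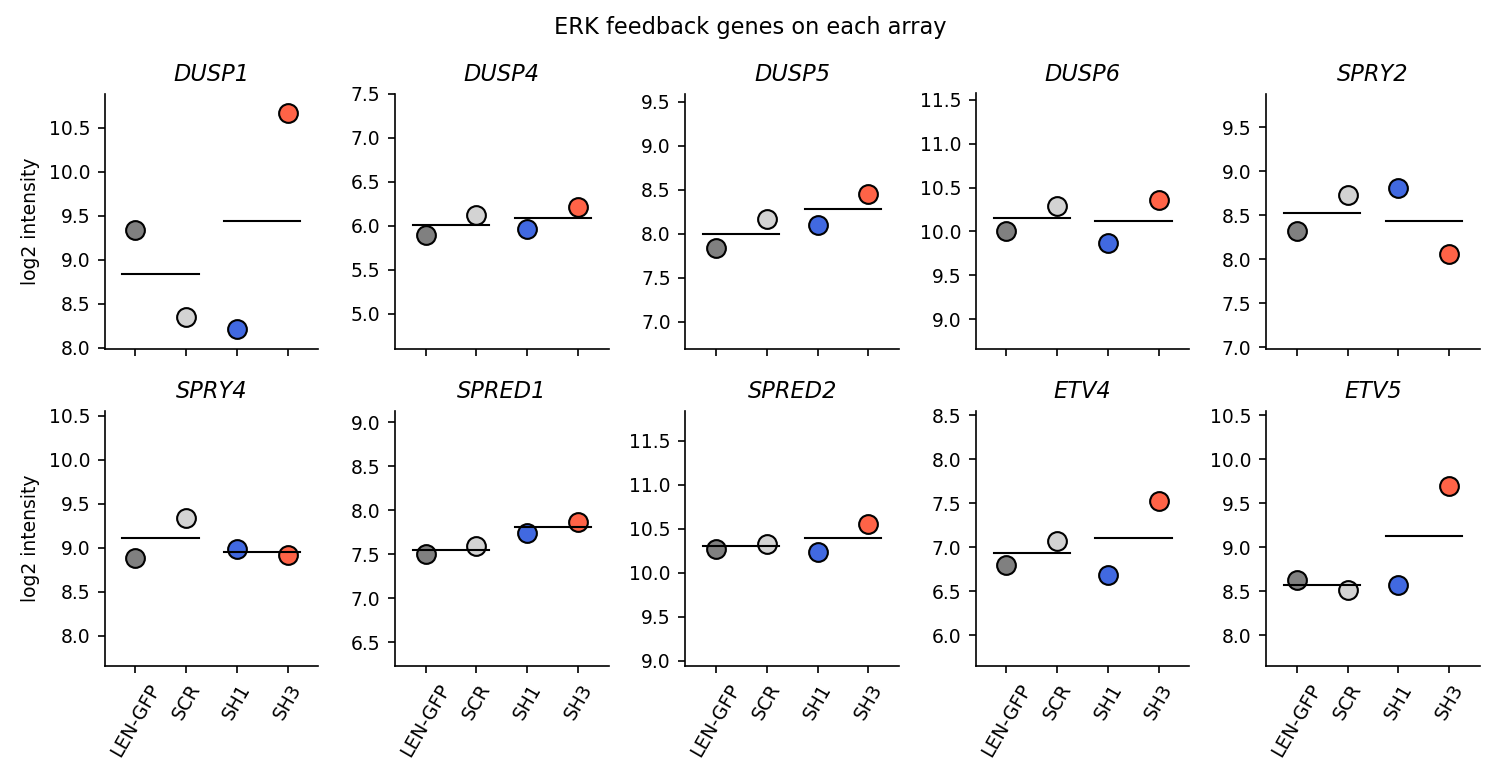
Log2 intensity of each of the 10 genes (vertical axis, the same span in every panel) on the LEN-GFP, SCR, SH1 and SH3 arrays, 1 point per array, with a line at the mean of each group of 2 arrays. SH3 lies above both controls for 8 of the 10 genes and is the bottom point for SPRY2. Only SPRED1 has both hairpin arrays above both controls.

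In limma with the controls giving the spread, 3 of the 9 members tested were called higher on SH3 (DUSP1, ETV4 and ETV5), where 6.33% of all genes tested were called higher and 7.00% lower. On SH1 0 members were called, where 0.155% of genes were called higher and 0.248% lower. For SH3 against SH1 the same 3 members were called higher, beside 4.01% of genes called higher and 4.48% lower. Between the groups of 2 arrays, 0 of the 9 members passed. Since each hairpin has a single array, its spread was taken to equal that of the controls. The rule for the members used these contrasts, so nothing is read from the counts.

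The 2 control constructs also stood apart on many of these genes. Both control values entered the contrasts that chose the members, so this difference too is a description. SCR was above LEN-GFP on 8 of the 10 members (7 of the 9 tested), while it was above on 41.3% of all genes tested. The difference, SCR minus LEN-GFP, had a median of 0.25 over the 10 members and of -0.03 over all genes tested. It was 0.46 for SPRY4, 0.40 for SPRY2, 0.33 for DUSP5, 0.29 for DUSP6, 0.27 for ETV4 and 0.22 for DUSP4. These 6 values lay above the 95th percentile of all genes tested, which was 0.22. For DUSP1 the difference was -0.98, at the 0.1 percentile. For SPRY4, DUSP6 and DUSP4 the distance between the controls was wider than that of SH3 from their mean. With the hairpin arrays giving the spread, limma called 0 of all genes tested in this contrast (0.00%), with 82 at an unadjusted p under 0.05. That spread holds the difference between the hairpins, which was 2.45 for DUSP1, so the count of 0 does not show that the controls are alike. Each control is 1 array, so construct and array cannot be told apart.

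**Figure D2:**
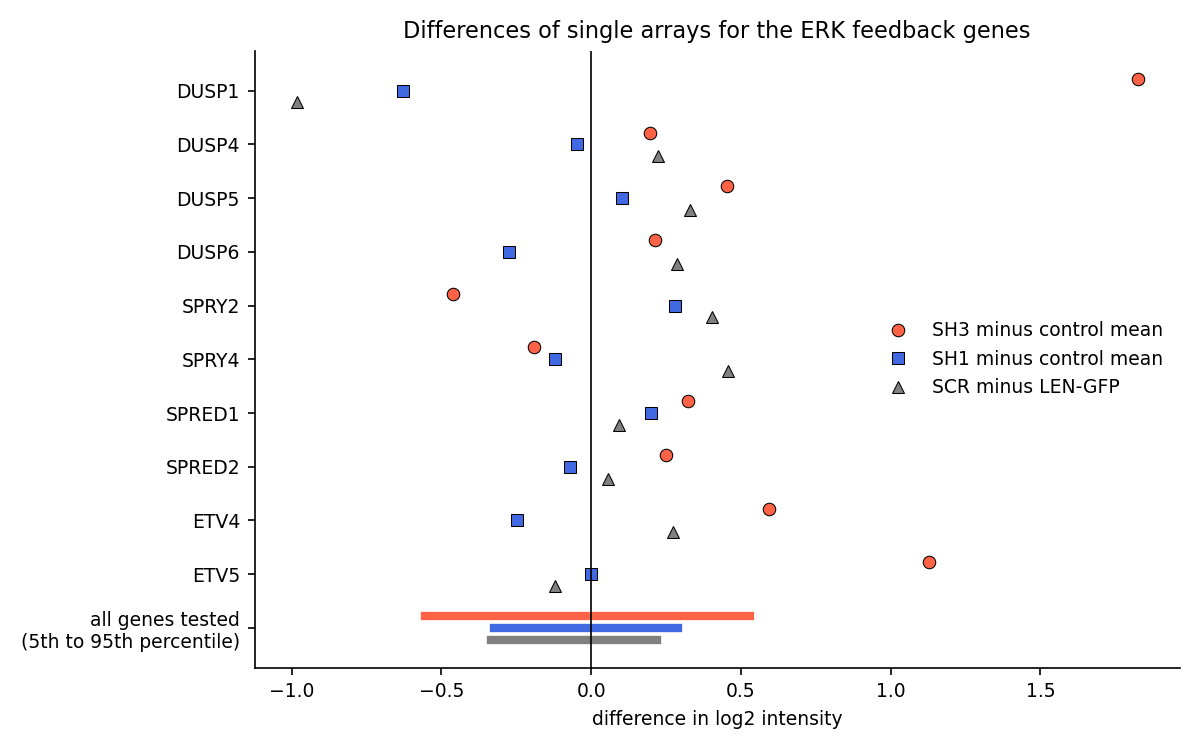
Differences in log2 intensity (horizontal axis) for each of the 10 genes, as SH3 and SH1 minus the mean of the controls and as SCR minus LEN-GFP, with bars for the 5th to 95th percentile of the 12892 genes tested. The control difference (triangles) lies to the right of its bar for 6 genes and far to the left for DUSP1, while SH3 (circles) leaves its bar for DUSP1, ETV4 and ETV5.

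Other genes were taken from 9 lists of 157 genes in all, and 1 of these lists holds genes of the glucocorticoid response. The lists were drawn up with earlier results of these data known. Their counts and medians, here and below, are therefore a description and lend the members no independent weight. On the array were 144 of the 157, and 119 were tested, 9 of them in the glucocorticoid list. The counts and medians over the 119 therefore cover more than the ERK pathway. Of these 119 genes, 20 were called higher and 5 lower on SH3, 1 was called higher and 0 lower on SH1, and 0 passed between the groups of 2 arrays. Over all genes tested, 6.33% were called higher and 7.00% lower on SH3, and 0.155% and 0.248% on SH1. The mean of the hairpin arrays was above that of the controls for 82 of the 119, where 49.2% of all genes tested were above. The count was 83 without LEN-GFP, 69 without SCR, 88 without SH1 and 63 without SH3. Without SH3, the share of all genes tested above the controls was 49.8%. The median difference was 0.13 on SH3 and 0.01 on SH1. The values of single genes below are differences in log2 intensity from the mean of the controls, given for SH3 and then SH1.

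Ligands showed no call among 8 tested genes. Beside this list and the next ones stand 6.33% of all genes tested called higher and 7.00% lower on SH3. On SH1 these shares were 0.155% and 0.248%. HGF, the ligand of MET, differed by 0.34 and 0.36, and VEGFA by 0.13 and -0.43. Of 13 receptors tested, CSF2RB was called higher on SH3 (0.67 and 0.0031). It encodes the beta chain that the GM-CSF receptor shares with some interleukin receptors. KIT, the stem cell factor receptor, was called lower on SH3 (-0.91 and 0.03). FGFR1 was also called lower on SH3 (-0.54 and 0.47). CSF1R was called on SH1 only, at 0.21 and 0.96, and its SH3 minus SH1 difference was called lower (adjusted p = 0.0272 in limma). Of 18 adaptors and RAS regulators, MRAS was called lower on SH3 (-0.88 and 0.05). RASGRP3, a RAS activator, did not pass on either array, at 0.29 and 0.68.

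Among 11 kinases and scaffolds tested, 3 were called higher on SH3 and 1 lower, with the same shares of all genes called as above. The higher genes were MAP2K1, which encodes the ERK kinase MEK1 (0.59 and -0.25), MAP3K8, a kinase that activates MEK in inflammatory signalling (0.61 and 0.09), and PEA15, which holds ERK in the cytoplasm (0.53 and 0.02). PEBP1, an inhibitor of RAF, was the lower gene (-0.74 and -0.26). Of 15 effector kinases and ETS or SRF factors, MKNK2, a kinase of the translation factor eIF4E (0.64 and -0.23), and RPS6KA3, a ribosomal S6 kinase (0.51 and 0.01), were called higher on SH3. ETS2 did not pass against the controls on either array, at -0.36 and 0.24. Its SH3 minus SH1 difference, -0.59, was called lower.

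The other dual specificity phosphatases gave 0 calls against the controls on either hairpin array among 10 tested, with the same shares of all genes called as above. DUSP18 differed by 0.51 and -0.30, DUSP7 by -0.25 and -0.38, and DUSP16 by -0.36 and -0.27. The SH3 minus SH1 difference of DUSP18, 0.80, was called higher. Of the 9 other feedback inhibitors tested, 4 were called higher on SH3 and 0 lower, beside 6.33% and 7.00% of all genes tested. The list median was 0.57 on SH3 and 0.08 on SH1, beside -0.0014 and -0.0006 over all genes tested. They were TRIB2, a pseudokinase of the Tribbles family (1.61 and 0.03), LRIG1, which lowers receptor tyrosine kinases (0.63 and 0.19), ZFP36, which speeds the decay of cytokine mRNA (0.57 and -0.04), and IER3 (0.57 and 0.18). The Sprouty relative SPRY3 was tested and not called, at -0.0066 and 0.13. Also tested and not called were TRIB1 (0.62 and 0.08), ERRFI1 (0.06 and -0.27), SOCS3 (0.05 and 0.11) and CISH (0.04 and -0.05). These uncalled genes lie outside the rule for names. SPRY1, SPRED3 and IL17RD, relatives or partners of the members in receptor feedback, fell below the filter on dim genes.

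Of 27 immediate early and delayed targets tested, 6 were called higher on SH3 and 1 lower, beside 6.33% and 7.00% of all genes tested. BHLHE40, a transcriptional repressor, stood at 1.40 and -0.02, the urokinase receptor gene PLAUR at 0.72 and 0.15, and FOS, a subunit of AP-1, at 0.65 and -0.38. The other 3 higher genes were JUN (0.80), KLF6 (0.79) and PHLDA1 (0.58 on SH3), which lie outside the rule for names and are named after their values were seen. MYC was the lower gene, at -0.99 and -0.20. DUSP1 is also induced by glucocorticoids, and of 9 genes of that response tested 4 were called higher on SH3 and 0 lower (6.33% and 7.00% of all genes tested). Among these, SGK1, a serine kinase, stood at 1.77 and 0.40, DDIT4, an inhibitor of mTOR signalling, at 1.24 and -0.90, and TSC22D3, the leucine zipper protein GILZ, at 1.08 and -0.06. MT2A was also called, at 0.27 on SH3. Not called on SH3 were ERRFI1 (0.06), CEBPD (0.02), KLF9 (0.02), PER1 (0.0025) and ZBTB16 (-0.25). MT2A and these uncalled genes lie outside the rule for names. The median of that list was 0.06 on SH3 and -0.06 on SH1. The part of this response in the value of DUSP1 was not tested.

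**Figure D3:**
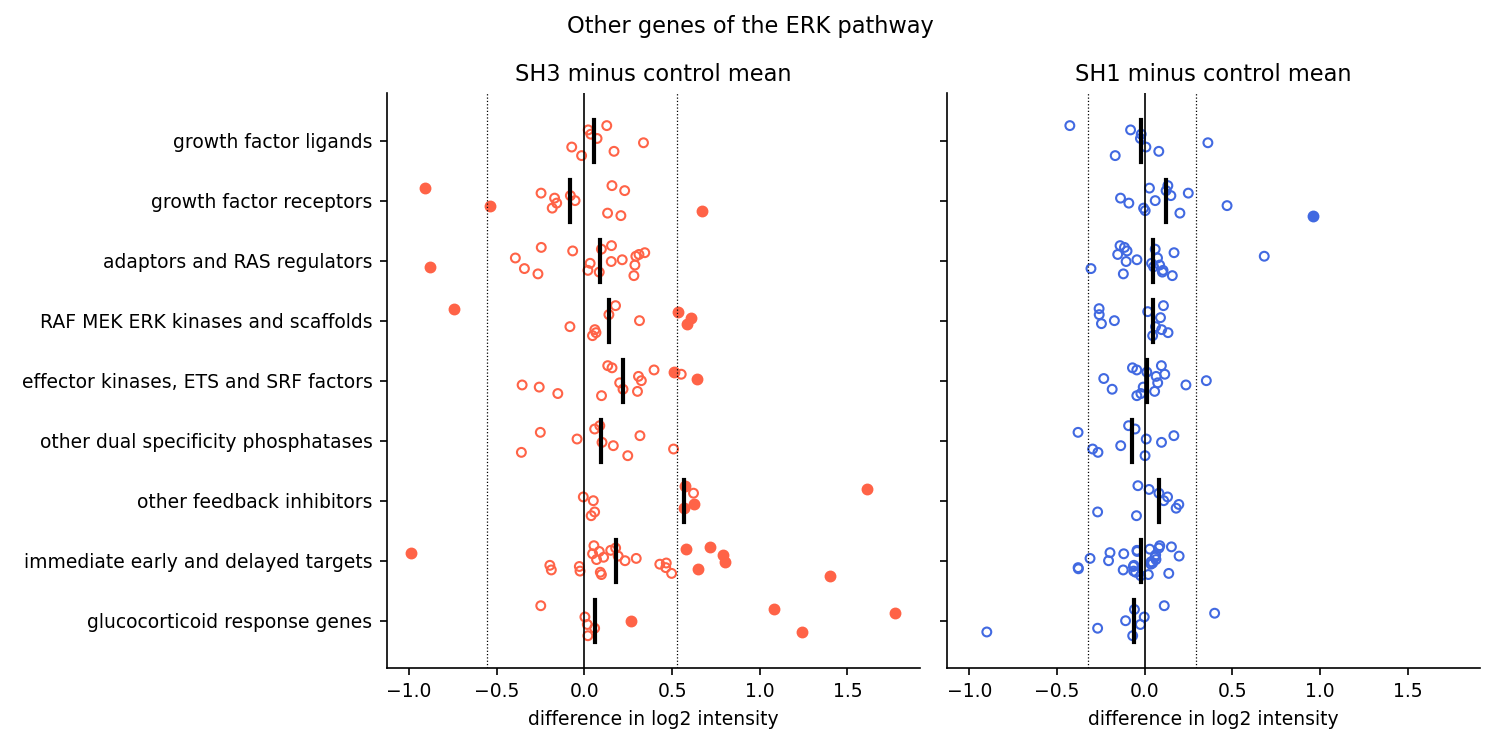
Differences in log2 intensity from the mean of the controls (horizontal axis) for the tested genes of 9 lists of ERK pathway and related genes, on SH3 (left) and SH1 (right), 1 circle per gene. Filled circles passed an adjusted p of 0.05 in limma, thick bars are list medians and dotted lines the 5th and 95th percentiles of all genes tested. The median of the other feedback inhibitors is 0.57 on SH3 and 0.08 on SH1. The lists were drawn up with earlier results of these data known.

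The genes nearest to DUSP1 and DUSP6 in pattern were found by the root mean square distance between log2 values centred on each gene's mean, over 4 arrays. Nearest to DUSP1 were CHRNA6, a nicotinic receptor subunit (distance 0.23), P3H2, a collagen prolyl hydroxylase (0.24), DDIT4 (0.24) and CCL2, a monocyte-attracting chemokine (0.25). CCL2 had log2 intensities of 9.63 on LEN-GFP, 9.03 on SCR, 9.17 on SH1 and 11.51 on SH3. DDIT4 had 9.38, 8.47, 8.03 and 10.17 in the same order, and like DUSP1 it was lowest on SH1. Nearest to DUSP6 were WWP1, a ubiquitin ligase (0.04), ABCC5, a transporter (0.05), CDKN1A, the cell cycle inhibitor p21 (0.05), and HMOX1, a haem oxygenase (0.05). CDKN1A had log2 intensities of 9.89, 10.05, 9.67 and 10.14, with SH1 lowest and SH3 and SCR highest as for DUSP6. With 4 arrays many genes can share an order by chance, and the distances are given as a description.

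**Figure D4:**
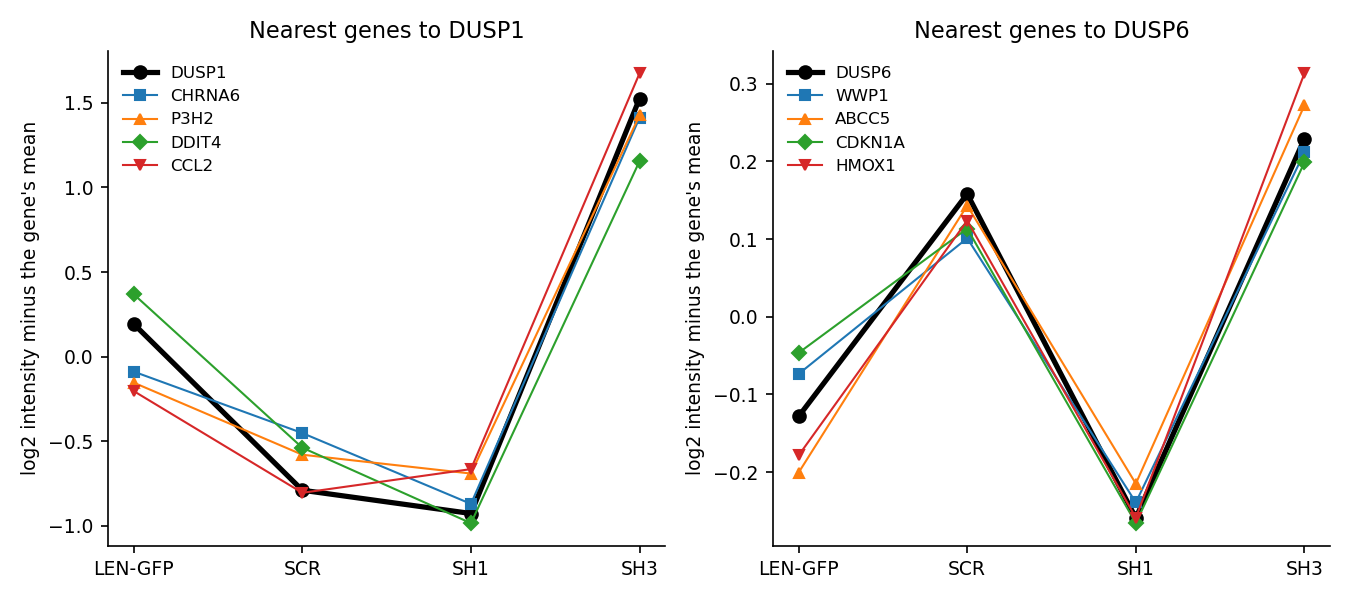
Log2 intensity minus the gene's own mean (vertical axis) on the 4 arrays for DUSP1 (left, black) and DUSP6 (right, black), each with its 4 nearest genes. The left panel peaks on SH3 and is lowest on SCR or SH1, while the right panel is high on SCR and SH3 and low on LEN-GFP and SH1, on a narrower scale.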

How the data were processed

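The authors deposited linear intensities of 33297 probe sets, 1 column per array, and all 4 columns were used. RNA was extracted with Trizol and 200 ng was labelled with the Ambion WT kit, per the labels' protocols. Affymetrix Expression Console 1.1 and RMA are named in the submitters' processing notes. The sources used here do not give the step to a linear scale, and a quantile step such as that of RMA hides changes in total RNA. Median intensity was 184.8 to 189.8. Arrays have no read depth, and the number of arrays limits the precision.

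Values were log2-transformed without an offset. Of the probe sets, 19460 had 1 symbol in the platform annotation, 1754 several and 12083 none, and 19429 of the first matched RefSeq. The probe set with the highest mean stood for its gene. The lowest 30% of genes (mean log2 under 6.70) were left out. limma 3.58.1 in R 4.3.3 (lmFit, eBayes with an intensity trend, two-sided, Benjamini-Hochberg over 12892 genes) compared groups, and single arrays in fits with 3 groups. SEs of group differences come from limma. Steps were tested on simulated data.

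Named were all members, ZFX, in each list up to 3 genes with the largest group difference and 2 with the largest difference between hairpins, and the 4 genes nearest to DUSP6 and to the member of widest range. Only some of these are printed. Members and lists were chosen with earlier results of these data known. Alternatives were other filters, eBayes settings, probe set rule, offset, normalization, and each array left out.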

Additional observations from a re-analysis of the deposited data

How the results depend on the processing

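No gene passed between the groups under any of the 9 alternatives that kept all 4 arrays, and with arrays left out limma called 0 to 1698 genes (0 without either control, 54 without SH3 and 1698 without SH1). The SH3 count, 1719 genes, stayed within 1.5 times under every alternative run. The SH1 count, 52 genes, was 20 with no filter on dim genes, 4 without an intensity trend, 144 with quantile normalization again and 23 with median centring. The SH3 against SH1 count, 1095 genes, was 688 with median centring. With other scalings, offsets or probe set rules, the differences of group means of the 10 members moved by at most 0.04 on the log2 scale. Of these 40 values, 0 changed sign. Those under the other probe set rule could not change, since each member has a single probe set. With an array left out, 10 of 40 changed sign, on 7 of the 10 members. DUSP1 then ranged from -0.63 to 1.83, ETV4 from -0.25 to 0.59, SPRY2 from -0.46 to 0.28, SPRY4 from -0.39 to 0.07, DUSP6 from -0.27 to 0.21, SPRED2 from -0.07 to 0.25 and DUSP4 from -0.05 to 0.20. DUSP5 and SPRED1 kept their sign, and ETV5 was at 0 without SH3. The signs of SH3 minus control and of SCR minus LEN-GFP were the same for all 10 members under the deposited values, quantile normalization again, median centring and an offset of 32. For SH1 minus control only ETV5, at 0, changed sign, to -0.01 with median centring. No paired analysis was possible because the labels give no replicate numbers shared between the groups. The table carries no detection call, so dim genes such as DUSP4 could not be told from unexpressed ones, and RMA compresses their differences.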
